A study of Mus musculus with 12 samples.

Results

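Mouse embryonic fibroblasts, a primary culture of connective tissue cells, carry the transcription factors that gave their tissue of origin its position and type. The genes described here are 44 such factors and cofactors, chosen by name from the families that pattern embryonic mesenchyme, with Hox, Fox and T-box genes left out. The choice was made with earlier results of these data known. Shares of members set beside shares of all genes therefore describe these 44 genes and do not test for an excess. A gene was taken where the Entrez identifier of its row in the count table mapped to the listed symbol. All 44 were found among the 27179 rows of the table. Most bind DNA through a homeodomain, a basic helix-loop-helix or a zinc finger domain, and many act in pairs or complexes. In the embryo they mark limb, face, dermis, kidney, gonad and connective tissue fields, and cultured fibroblasts often keep such positional expression.

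The fibroblasts came from wild-type C57BL/6 embryos at day 13.5 and grew in medium with 10% serum under 3% oxygen. The libraries fell into 4 groups of 3: WM-8014 for 240 h, WM-2474 for 240 h, WM-8014 for 96 h and WM-2474 for 96 h, each compound at 10 µM. WM-8014 inhibits the MYST family of lysine acetyltransferases, and WM-2474 is its inactive control compound, so that all cells received a compound and no untreated cells were measured. Polyadenylated RNA was sequenced from cultures numbered 5, 6 and 7 in each group, and 3 values of a group are given in that order. The labels call the replicates biological but do not say whether the cultures came from separate embryos, so that p-values measure the spread between these cultures.

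Libraries held 10147466 to 45903190 counted reads, and 3 reads equal 0.0615 to 0.303 CPM, the count scaled to library size. The summed level of 10 fibroblast markers was 30262 to 36951 CPM at 96 h and 49704 to 54103 CPM at 240 h. At 240 h Pdgfra (-0.43, edgeR adjusted p = 1.84e-06) and Lum (-2.29, 0.00595) were lower in WM-8014 cultures. Vim (0.14, 0.00334) and Fn1 (0.29, 0.00156) were higher, and the other fibroblast markers were not called. Alternatives for these markers are not reported here. The summed level of 5 epithelial markers, 1 of them tested, was 0.692 to 3.53 CPM. Epcam had 0 reads in both WM-8014 groups and averaged 0.0741 CPM at 240 h and 0.0756 CPM at 96 h in the WM-2474 groups. Krt18, the one tested, was lower in WM-8014 cultures at 96 h (-1.33 on the log2 scale, adjusted p = 0.00126). Krt18 lost its 96 h call without culture 7 (0.0678) throughout, within 0.000354 to 0.0678 over 21 alternatives. All libraries are labelled female, but Ddx3y, a Y-linked gene, was at 96.3 to 124 CPM and Xist had 0 to 4 reads. Cultures 6 and 7 of the WM-2474 96 h group stood apart in Misp3, a gene outside the list. It was at 0.724 to 0.943 CPM there, against 79.9 to 285 CPM in the other 10 libraries. Their library scaling factors, 1.056 and 1.064, lay near the 1.062 of culture 5 of that group. Results that involve the 96 h WM-2474 group are therefore given without these 2 libraries where that ended a call. In bulk RNA, fewer cells of a type and less RNA per cell cannot be told apart.

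The members spanned a wide range of levels. Per gene length, as RPKM, the count scaled to gene length and library size, averaged over the 12 libraries, Twist2 was at 125, Prrx2 at 110.3 and Prrx1 at 103, above Sox4 at 58.3, Twist1 at 47.0, Irx1 at 46.1, Osr1 at 32.6 and Irx2 at 25.7 RPKM. The ranges of the first 3 overlapped, from 101 to 153 RPKM for Twist2, from 87.2 to 149 RPKM for Prrx2 and from 90.2 to 111 RPKM for Prrx1. In all, 15 members averaged at least 10 RPKM, 22 lay from 1 to 10 RPKM and 7 were under 1 RPKM. The median of the members was 5.58 RPKM, beside 8.70 RPKM over the 14136 genes tested. Tcf21, a factor of visceral mesenchyme, had 0 to 2 reads per library, Gata4, of heart and gut mesoderm, 0 to 5 reads, and Msx1, of limb and face mesenchyme, 0 to 8 reads. These 3 fell below the filter on low counts and were not tested, which left 41 members.

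**Figure D1:**
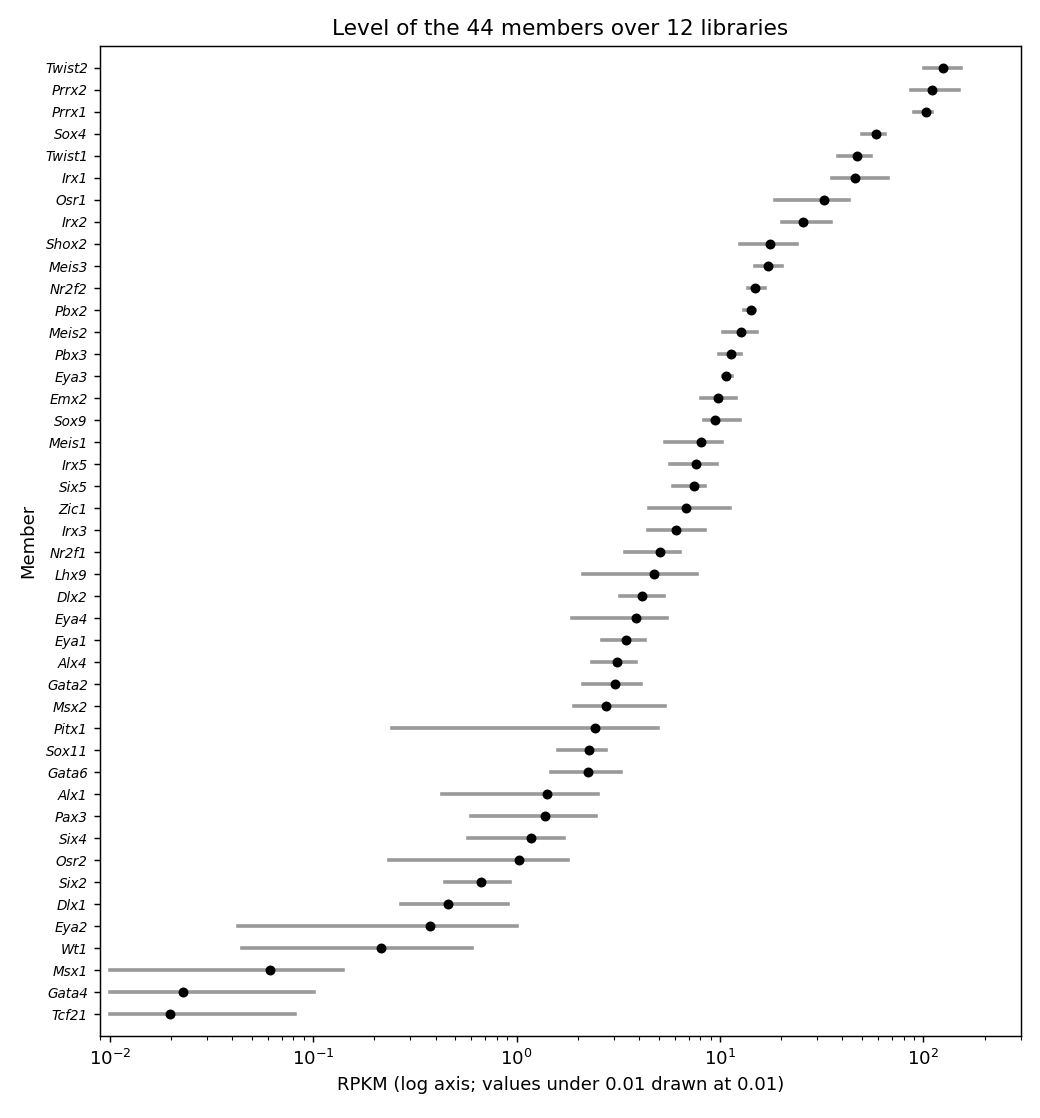
Level of each of the 44 members in RPKM on a log axis, ordered by mean: the point is the mean and the line the range over 12 libraries. Twist2, Prrx2 and Prrx1 lie above 87 RPKM in every library, and Pitx1 spans 0.243 to 4.97 RPKM.

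After 240 h, WM-8014 cultures differed from WM-2474 cultures in 19 of the 41 members tested, with 6 higher and 13 lower (edgeR quasi-likelihood F test, Benjamini-Hochberg adjusted p under 0.05 over all genes). Over all 14136 genes 42.6% were called, beside 46.3% of the members, so that the share of members called was near that of any gene. By direction, 31.7% of members were lower beside 21.4% of all genes, and 14.6% were higher beside 21.2% of all genes. The median log2 fold change was -0.13 over the members and 0.01 over all genes, and 26 of 41 members were below 0. The genes that rose were Prrx2, Msx2, Dlx1, Dlx2, Alx1 and Pax3, and those that fell were Twist1, Twist2, Osr1, Meis1, Meis2, Alx4, Emx2, Irx1, Irx2, Nr2f1, Sox11, Sox4 and Lhx9. In 18 of these 19 the groups did not overlap, the exception being Msx2, and in all 19 each WM-8014 culture lay on the called side of the WM-2474 culture of its number. A call favours groups that lie apart, and the same shares over all called genes were not computed.

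After 96 h, 12 members differed, 2 higher and 10 lower, or 29.3% of members beside 22.8% of all genes. Sox9 and Pax3 rose, and Prrx1, Twist1, Twist2, Eya2, Meis1, Meis2, Emx2, Irx2, Sox11 and Lhx9 fell. The lower calls made up 24.4% of members beside 11.8% of all genes, and the higher calls 4.88% beside 10.9%. The median log2 fold change was -0.13 over the members and 0.00 over all genes, and 35 of 41 members were below 0. With cultures 6 and 7 left out of the WM-2474 96 h group, 0 members were called higher and 4 lower, and over all genes 432 and 437. That leaves 1 library in the group, which is assumed to vary like the other groups, so that fewer calls there do not show smaller effects. Both times shared 1 higher member, Pax3, of 6 higher at 240 h (16.7%) and 2 at 96 h. They shared 8 lower members, which is 61.5% of those lower at 240 h and 80.0% of those lower at 96 h: Emx2, Irx2, Lhx9, Meis1, Meis2, Sox11, Twist1 and Twist2. The shared part of all called genes was not computed, so these shares are not shown to be particular to the members. The difference between the effects at 240 h and 96 h, tested as an interaction, was called for 6 members, Osr1, Irx2, Meis1, Alx1, Prrx1 and Prrx2, or 14.6% of members beside 10.7% of all genes. It was above 0 for 3 members, beside 5.15% of all genes, and below 0 for 3, beside 5.53%.

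In the accounts of each family that follow, a fold change is log2 of WM-8014 over WM-2474, or of 240 h over 96 h, and is given with its standard error. The interaction is the log2 effect at 240 h minus that at 96 h. Calls were recomputed under 21 other settings, among them leaving out each library, each culture number, or cultures 6 and 7 of the WM-2474 96 h group. In the account of each member, a setting that ended a call is named with the adjusted p it gave, and with the log2 change where that moved by over 1.5 times. A call with no such sentence in that account held under all of them. Without cultures 6 and 7 of the WM-2474 96 h group, its single library borrows the spread of the other groups. Of the calls, 9 of 19 at 240 h, 1 of 12 at 96 h and 1 of 6 interactions held throughout, and no member changed sign past the threshold. Of the calls over time, 9 of 23 under WM-2474 and 18 of 28 under WM-8014 held. How many calls over all genes held was not computed.

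**Figure D2:**
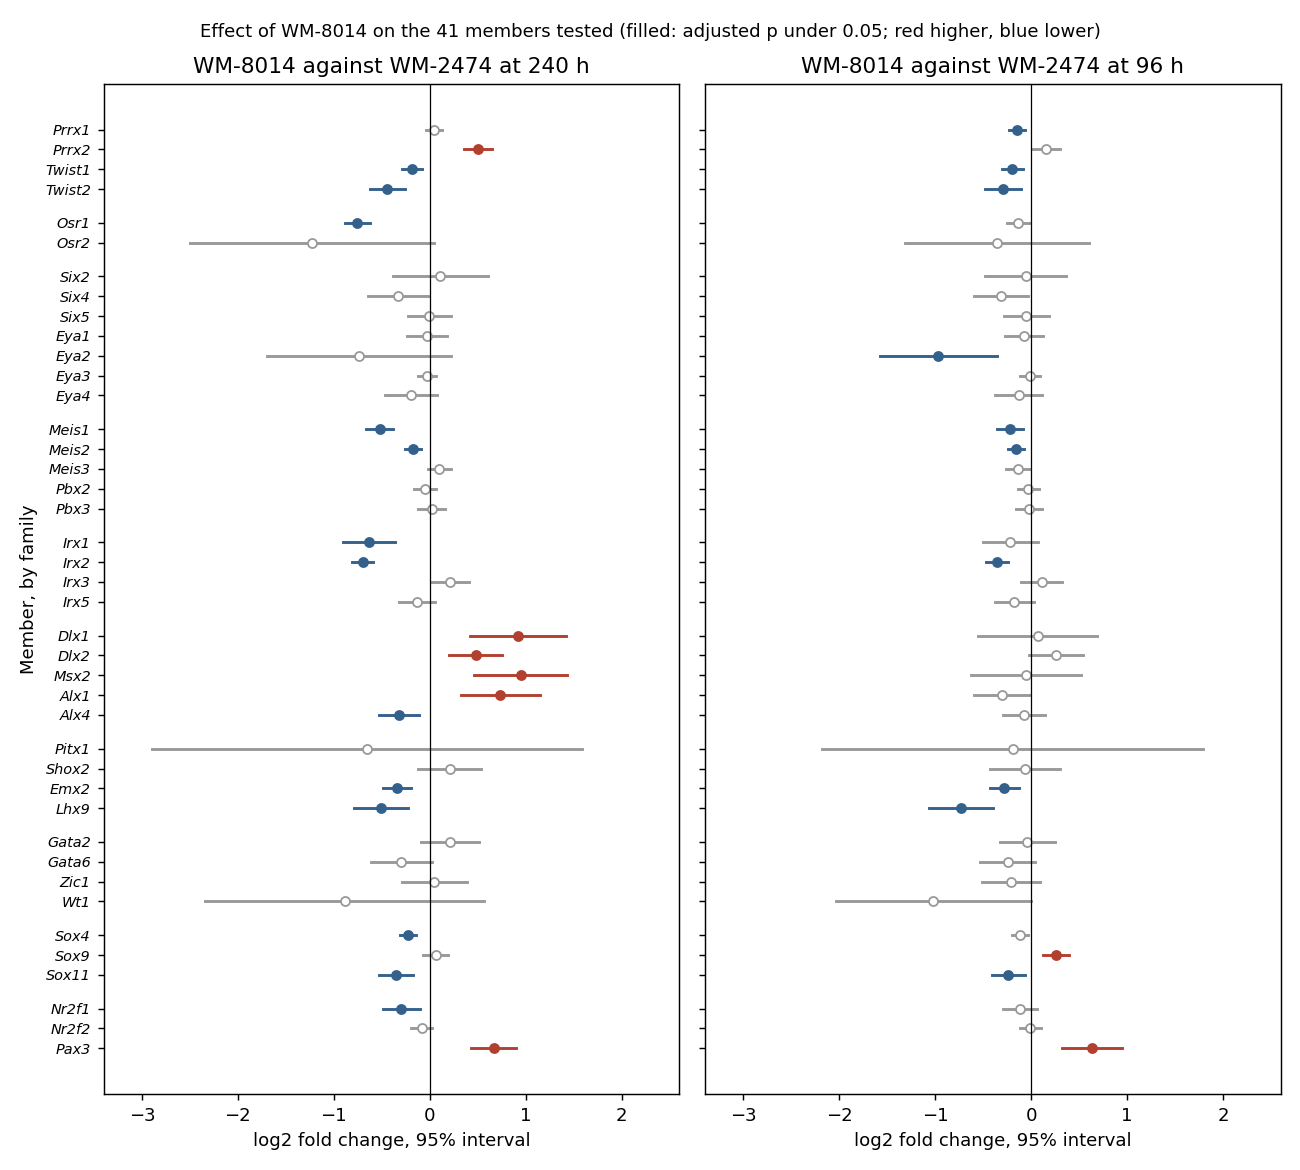
Log2 fold change of WM-8014 over WM-2474 at 240 h (left) and 96 h (right) for the 41 members tested, by family, with 95% intervals. Filled red points are higher and filled blue points lower at an adjusted p under 0.05: 6 and 13 at 240 h, 2 and 10 at 96 h.

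The Iroquois genes encode homeodomain proteins of the TALE class and lie in clusters, Irx1 and Irx2 on chromosome 13 and Irx3 and Irx5 on chromosome 8, with 660706 bases between Irx1 (chr13:71958232-71963723) and Irx2 (chr13:72624430-72634196). Irx1 and Irx2 were lower in WM-8014 cultures while Irx3 and Irx5 were not. Irx2 held at both times and carried the smallest adjusted p of any member at 240 h. The 250 bases before its start in the RefSeq promoter table (GRCm38.p6, the mm10 build) are printed 5′ to 3′ beside those of Twist1, Sox11 and Dlx2. They were picked from the members called at 240 h whose window holds no exon of the GENCODE annotation, and capitals mark matches on either strand to the GC box GGGCGG, the CCAAT box, the TATA box TATAAA, the homeodomain core TAATTA, the Meis core TGACAG and the E-box CATATG.
Irx2, chr13:72628570-72628819, plus strand: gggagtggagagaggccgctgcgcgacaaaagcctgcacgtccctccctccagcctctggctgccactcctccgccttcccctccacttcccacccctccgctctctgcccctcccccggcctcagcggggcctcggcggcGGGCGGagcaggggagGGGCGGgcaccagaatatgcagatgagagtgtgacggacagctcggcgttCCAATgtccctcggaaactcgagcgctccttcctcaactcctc
Twist1, chr12:33957421-33957670, plus strand: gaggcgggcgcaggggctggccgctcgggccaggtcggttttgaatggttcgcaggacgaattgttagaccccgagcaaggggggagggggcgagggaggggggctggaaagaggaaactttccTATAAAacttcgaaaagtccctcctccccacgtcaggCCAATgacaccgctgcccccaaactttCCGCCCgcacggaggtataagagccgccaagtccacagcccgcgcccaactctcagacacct
Sox11, chr12:27342719-27342968, minus strand: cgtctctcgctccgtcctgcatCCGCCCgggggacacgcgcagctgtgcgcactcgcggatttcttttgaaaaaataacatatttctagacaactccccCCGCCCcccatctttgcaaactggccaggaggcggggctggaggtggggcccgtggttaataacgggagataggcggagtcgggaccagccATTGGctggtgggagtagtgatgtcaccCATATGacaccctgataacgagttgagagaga
Dlx2, chr2:71546755-71547004, minus strand: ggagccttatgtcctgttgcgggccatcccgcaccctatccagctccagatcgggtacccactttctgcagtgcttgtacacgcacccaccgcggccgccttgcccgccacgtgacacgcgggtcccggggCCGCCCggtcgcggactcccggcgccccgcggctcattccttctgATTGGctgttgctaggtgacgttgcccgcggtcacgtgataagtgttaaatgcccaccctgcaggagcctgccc
The Irx2 window lies inside the span that RefSeq gives the gene, before the start of a shorter transcript, and holds 2 GC boxes (GGGCGG) and 1 CCAAT box. The Twist1 window holds 1 GC box, 1 CCAAT box and 1 TATAAA, the Sox11 window 2 GC boxes, 1 CCAAT box and 1 CATATG, the E-box letters bound by Twist proteins, and the Dlx2 window 1 GC box and 1 CCAAT box. The first bases after the Sox11 window matched no GENCODE transcript of that gene, whereas those after the Irx2, Twist1 and Dlx2 windows did.

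At 240 h Irx2 was at 51.2, 50.3 and 55.5 CPM in WM-8014 cultures, against 86.9, 84.9 and 82.8 CPM in WM-2474 cultures. At 96 h it was at 50.4, 52.9 and 49.6 CPM in WM-8014 cultures, against 68.5, 58.9 and 68.1 CPM in WM-2474 cultures. At both times every WM-8014 culture was below every WM-2474 culture. The log2 fold change was -0.70 ± 0.053 (SE), adjusted p = 1.17e-09 at 240 h and -0.36 ± 0.055 (adjusted p = 9.86e-05) at 96 h, and the interaction was -0.34 ± 0.077 (adjusted p = 0.00602). Under WM-2474 Irx2 rose over time (0.38 ± 0.052, adjusted p = 5.5e-06), whereas under WM-8014 the 240 h and 96 h values overlapped (0.04 ± 0.057, adjusted p = 0.614). Irx1, its cluster neighbour, was at 73.4, 74.2 and 99.2 CPM in WM-8014 cultures, against 133, 114 and 138 CPM in WM-2474 cultures at 240 h. Culture 7 was the highest of the WM-8014 cultures there, and the groups did not overlap. The 240 h change was -0.63 ± 0.12 (adjusted p = 0.00236), and at 96 h the means were 78.5 ± 4.8 CPM in WM-8014 cultures and 91.1 ± 4.1 CPM in WM-2474 cultures (-0.22 ± 0.12, adjusted p = 0.261). Irx1 passed at 96 h without WM-8014 240 h culture 7 (0.0319), within 0.0319 to 0.528 over 21 alternatives. Its interaction was -0.42 ± 0.17 (adjusted p = 0.184), and it passed without WM-8014 240 h culture 7 (0.00169) and without culture 7 (0.00704) throughout, within 0.00169 to 0.583 over 21 alternatives. Under WM-2474 Irx1 rose over time (0.49 ± 0.12, adjusted p = 0.01). Irx2 lost its interaction call without culture 6 (0.175, log2 change -0.21) throughout and without WM-2474 96 h cultures 6 and 7 (0.0924), within 0.000714 to 0.175 over 21 alternatives. Irx1 lost its 240 h call without culture 5 (0.064) throughout, within 1.04e-06 to 0.064 over 21 alternatives. Irx1 lost its WM-2474 time call without culture 5 (0.091) throughout and without WM-2474 96 h cultures 6 and 7 (0.201), within 2.42e-05 to 0.201 over 21 alternatives. Irx3 and Irx5, known from heart and limb, rose over time under both compounds: Irx3 by 0.53 ± 0.099 (adjusted p = 0.000129) under WM-8014 and 0.43 ± 0.096 (adjusted p = 0.00119) under WM-2474, Irx5 by 0.36 ± 0.098 (adjusted p = 0.00453) and 0.31 ± 0.090 (adjusted p = 0.00862). Between compounds Irx3 was at 18.2 ± 1.5 CPM in WM-8014 cultures and 15.5 ± 0.43 CPM in WM-2474 cultures at 240 h (0.21 ± 0.092, adjusted p = 0.066) and gave 0.11 ± 0.10 (adjusted p = 0.484) at 96 h, and Irx5 gave -0.13 ± 0.090 (adjusted p = 0.27) at 240 h and -0.17 ± 0.098 (adjusted p = 0.221) at 96 h. Irx3 passed at 240 h without WM-8014 96 h culture 5 (0.0436) or 7 (0.0408), within 0.0373 to 0.211 over 21 alternatives. Irx5 passed at 96 h without WM-8014 96 h culture 5 (0.034), within 0.034 to 0.786 over 21 alternatives. Irx5 lost its WM-8014 time call without culture 7 (0.11, log2 change 0.24) throughout, within 0.000285 to 0.11 over 21 alternatives. Irx5 lost its WM-2474 time call without WM-2474 240 h culture 7 (0.0613), without culture 7 (0.0766) throughout and without WM-2474 96 h cultures 6 and 7 (0.173), within 0.00185 to 0.173 over 21 alternatives. The antisense gene Gm20554 overlaps Irx2 and also fell at 240 h (-0.49, adjusted p = 0.00182). Which strand setting was used in counting is not given in the sources used here, so reads of the pair cannot be told apart.

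Osr1 and Osr2 are odd-skipped zinc finger factors: Osr1 marks intermediate mesoderm and connective tissue precursors, Osr2 palate and joint mesenchyme. Osr1 (chr12:9574442-9581500) was at 39.0, 37.4 and 37.3 CPM in WM-8014 cultures, against 70.7, 59.9 and 60.8 CPM in WM-2474 cultures at 240 h, and at 79.4, 78.8 and 71.0 CPM in WM-8014 cultures, against 86.9, 80.6 and 84.0 CPM in WM-2474 cultures at 96 h. The 240 h groups were far apart, and at 96 h the groups also did not overlap but lay close together. Osr1 was lower at 240 h (log2 fold change -0.75 ± 0.061 (SE), adjusted p = 5.41e-09), while at 96 h it missed the threshold (-0.13 ± 0.057, adjusted p = 0.101). With culture as a block, which pairs the cultures at 96 h, it passed there (adjusted p = 0.0288), as it did without WM-2474 240 h culture 5 (0.0441), within 0.0288 to 0.515 over 21 alternatives. The interaction of -0.62 ± 0.084 (adjusted p = 5.29e-05) was the only one among the members that held in all 21 alternatives. Osr1 fell over time under both compounds, with a change of -1.02 ± 0.062 (adjusted p = 3.23e-11) under WM-8014 and -0.40 ± 0.057 (adjusted p = 1.2e-05) under WM-2474. Osr2 was low, at 0.404, 0.415 and 1.21 CPM in WM-8014 cultures, against 2.89, 0.889 and 1.04 CPM in WM-2474 cultures at 240 h, where 2 WM-8014 cultures were below the third and the groups overlapped. Its change was -1.22 ± 0.58 (adjusted p = 0.112) at 240 h and -0.35 ± 0.44 (adjusted p = 0.614) at 96 h. Osr2 passed at 240 h with DESeq2's Wald test (0.0252), without WM-2474 240 h culture 6 (0.0442), without WM-8014 240 h culture 7 (0.034) and without culture 7 (0.0487) throughout, within 0.0252 to 0.5 over 21 alternatives. Over time under WM-8014 Osr2 fell (-1.65 ± 0.57, adjusted p = 0.0334). Under WM-2474 its time change was -0.78 ± 0.43 (adjusted p = 0.184). That change passed with culture as a block (0.0285), without WM-2474 240 h culture 5 (0.00246) and without culture 5 (0.00352) throughout, within 0.00246 to 0.623 over 21 alternatives. The Osr2 interaction was -0.87 ± 0.73 (adjusted p = 0.541). Osr2 lost its WM-8014 time call with no filter on low counts (0.0822), without WM-8014 96 h culture 5 (0.12), without WM-8014 240 h culture 5 (0.0754) or 6 (0.159), without culture 6 (0.119) throughout and without WM-2474 96 h cultures 6 and 7 (0.0559), within 0.00119 to 0.159 over 21 alternatives. The WM-8014 time log2 change of Osr2 was -2.49 without culture 7 throughout (adjusted p = 0.0224).

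Prrx1 and Prrx2 are paired-related homeobox factors of limb and facial mesenchyme, and Twist1 and Twist2 are basic helix-loop-helix factors, Twist2 being known from dermis. Within this pair of families Prrx2 and the Twist genes went opposite ways at 240 h. Prrx2 (chr2:30845064-30881251) was at 164, 168 and 152 CPM in WM-8014 cultures, against 118, 108 and 117 CPM in WM-2474 cultures at 240 h, all WM-8014 cultures being above all WM-2474 cultures, and rose (log2 fold change 0.50 ± 0.067 (SE), adjusted p = 4.04e-05). At 96 h its groups overlapped, at 117 ± 9.8 CPM in WM-8014 cultures and 105 ± 9.3 CPM in WM-2474 cultures (SD, n = 3 each; 0.16 ± 0.070, adjusted p = 0.131), and the interaction was 0.35 ± 0.097 (adjusted p = 0.0368). Prrx2 passed at 96 h without WM-2474 96 h culture 5 (0.0221) and without WM-8014 96 h culture 7 (0.0246), within 0.0221 to 0.972 over 21 alternatives. Prrx1 (chr1:163245119-163315145), the member with the most reads, was at 691, 672 and 752 CPM in WM-8014 cultures, against 789, 775 and 784 CPM in WM-2474 cultures at 96 h. The groups did not overlap, and Prrx1 was slightly lower (-0.15 ± 0.041, adjusted p = 0.0106), but at 240 h they overlapped (0.05 ± 0.040, adjusted p = 0.377). Its interaction was 0.20 ± 0.057 (adjusted p = 0.0298). Under WM-8014 both rose over time, Prrx1 by 0.19 ± 0.041 (adjusted p = 0.000573) and Prrx2 by 0.47 ± 0.069 (adjusted p = 6.46e-05), beside -0.01 ± 0.040 (adjusted p = 0.906) and 0.12 ± 0.069 (adjusted p = 0.19) under WM-2474. Prrx2 passed over time under WM-2474 without WM-2474 96 h culture 5 (0.0277), within 0.0277 to 0.887 over 21 alternatives. Prrx2 lost its interaction call with no filter on low counts (0.0609), without WM-2474 240 h culture 5 (0.0572), 6 (0.0754) or 7 (0.0654), without WM-2474 96 h culture 7 (0.0541), without WM-8014 96 h culture 5 (0.0593) or 7 (0.0536), without WM-8014 240 h culture 5 (0.0845) or 6 (0.0872) and without culture 5 (0.13) throughout, within 0.0051 to 0.13 over 21 alternatives. Prrx1 lost its 96 h call without WM-8014 96 h culture 5 (0.0512) or 6 (0.0655), without culture 5 (0.106) or 6 (0.116) throughout and without WM-2474 96 h cultures 6 and 7 (0.139), within 0.00114 to 0.139 over 21 alternatives. Prrx1 lost its interaction call without WM-2474 96 h culture 5 (0.066) or 7 (0.0705), without WM-2474 240 h culture 6 (0.0806) or 7 (0.0798), without WM-8014 96 h culture 5 (0.0764) or 6 (0.0916), without WM-8014 240 h culture 5 (0.0913), without culture 5 (0.157) or 6 (0.257) throughout and without WM-2474 96 h cultures 6 and 7 (0.157), within 0.00461 to 0.257 over 21 alternatives.

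Twist2 was at 139.8, 132 and 136 CPM in WM-8014 cultures, against 177, 176 and 199.5 CPM in WM-2474 cultures at 240 h, and at 163, 134 and 154 CPM in WM-8014 cultures, against 201, 166 and 186 CPM in WM-2474 cultures at 96 h. At 240 h and at 96 h each WM-8014 culture was below each WM-2474 culture. It fell at both times (-0.44 ± 0.083, adjusted p = 0.00147 at 240 h and -0.29 ± 0.084, adjusted p = 0.031 at 96 h). Twist1 (chr12:33957671-33959831) fell less, with 76.3 ± 3.5 CPM in WM-8014 cultures and 86.5 ± 3.6 CPM in WM-2474 cultures at 240 h (-0.18 ± 0.049, adjusted p = 0.00505) and 66.9 ± 4.8 CPM in WM-8014 cultures and 76.6 ± 1.5 CPM in WM-2474 cultures at 96 h (-0.19 ± 0.051, adjusted p = 0.00903). Over time Twist1 rose under both compounds (0.19 ± 0.052, adjusted p = 0.00464 under WM-8014 and 0.17 ± 0.049, adjusted p = 0.00702 under WM-2474). For Twist2 the time changes were -0.15 ± 0.085 (adjusted p = 0.172) under WM-8014 and 0.00 ± 0.082 (adjusted p = 0.998) under WM-2474. Twist2 passed over time under WM-8014 without WM-8014 96 h culture 6 (0.027) and without culture 6 (0.0135) throughout, within 0.0135 to 0.446 over 21 alternatives. Twist2 lost its 240 h call without culture 7 (0.0634) throughout, within 2.51e-08 to 0.0634 over 21 alternatives. Twist2 lost its 96 h call with no filter on low counts (0.0629), without WM-2474 96 h culture 5 (0.073) or 7 (0.0992), without WM-8014 96 h culture 6 (0.0636) or 7 (0.0727), without WM-8014 240 h culture 7 (0.0513) and without culture 7 (0.201) throughout, within 0.000317 to 0.201 over 21 alternatives. Twist1 lost its 240 h call without culture 5 (0.0641) throughout, within 0.00106 to 0.0641 over 21 alternatives. Twist1 lost its 96 h call without WM-8014 96 h culture 7 (0.0646), without culture 5 (0.0691) or 7 (0.132) throughout and without WM-2474 96 h cultures 6 and 7 (0.109), within 0.00169 to 0.132 over 21 alternatives. Twist1 lost its WM-8014 time call without culture 7 (0.197, log2 change 0.10) throughout, within 0.000908 to 0.197 over 21 alternatives. Twist1 lost its WM-2474 time call without culture 5 (0.056) throughout and without WM-2474 96 h cultures 6 and 7 (0.231), within 0.00172 to 0.231 over 21 alternatives.

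Meis and Pbx proteins are TALE homeodomain factors that bind DNA together with Hox proteins. Meis1 and Meis2 were lower in WM-8014 cultures at both times, while Meis3, Pbx2 and Pbx3 did not pass at either. Meis1 was at 21.0, 18.5 and 19.8 CPM in WM-8014 cultures, against 29.4, 27.5 and 27.2 CPM in WM-2474 cultures at 240 h. At 96 h it was at 30.2, 26.5 and 30.4 CPM in WM-8014 cultures, against 32.1, 35.2 and 34.1 CPM in WM-2474 cultures. The groups did not overlap at either time and were further apart at 240 h. Meis1 fell with a change of -0.52 ± 0.069 (adjusted p = 2.66e-06) at 240 h and -0.22 ± 0.066 (adjusted p = 0.0176) at 96 h, with an interaction of -0.30 ± 0.095 (adjusted p = 0.0467). Meis2 was at 54.7 ± 0.50 CPM in WM-8014 cultures and 61.9 ± 0.64 CPM in WM-2474 cultures at 240 h (SD, n = 3 each; -0.18 ± 0.039, adjusted p = 0.00106) and at 71.2 ± 1.6 CPM in WM-8014 cultures and 79.4 ± 0.89 CPM in WM-2474 cultures at 96 h (-0.16 ± 0.039, adjusted p = 0.00508). The groups of Meis2 were narrow and apart at both times. Both genes also fell over time: Meis1 with a change of -0.57 ± 0.071 (adjusted p = 6.88e-07) under WM-8014 and -0.27 ± 0.063 (adjusted p = 0.00156) under WM-2474, Meis2 with a change of -0.38 ± 0.040 (adjusted p = 7.29e-08) and -0.36 ± 0.038 (adjusted p = 1.35e-07). Meis1 lost its 96 h call without WM-2474 96 h culture 6 (0.0629) or 7 (0.0782), without WM-8014 96 h culture 6 (0.111), without culture 6 (0.251, log2 change -0.14) or 7 (0.0833) throughout and without WM-2474 96 h cultures 6 and 7 (0.471, log2 change -0.15), within 0.00937 to 0.471 over 21 alternatives. Meis1 lost its interaction call with DESeq2 size factors (0.0513), with DESeq2's Wald test (0.116), without WM-2474 96 h culture 5 (0.0923), 6 (0.0519) or 7 (0.0929), without WM-2474 240 h culture 5 (0.0866), 6 (0.0638) or 7 (0.0567), without WM-8014 96 h culture 5 (0.113) or 7 (0.115), without WM-8014 240 h culture 6 (0.165) or 7 (0.0553), without culture 5 (0.223), 6 (0.0998) or 7 (0.2) throughout and without WM-2474 96 h cultures 6 and 7 (0.11), within 0.0182 to 0.223 over 21 alternatives. Meis2 lost its 96 h call without culture 6 (0.0682) or 7 (0.0889) throughout and without WM-2474 96 h cultures 6 and 7 (0.203), within 0.00392 to 0.203 over 21 alternatives. Meis1 lost its WM-2474 time call without WM-2474 96 h cultures 6 and 7 (0.216), within 0.000619 to 0.216 over 21 alternatives. Meis3 was at 34.7 ± 2.3 CPM in WM-8014 cultures and 32.1 ± 0.89 CPM in WM-2474 cultures at 240 h (0.10 ± 0.056, adjusted p = 0.157) and at 26.9 ± 0.38 CPM in WM-8014 cultures and 29.6 ± 0.76 CPM in WM-2474 cultures at 96 h (-0.14 ± 0.060, adjusted p = 0.0988). Meis3 passed without WM-8014 240 h culture 6 in 2 tests, the 240 h change (adjusted p = 0.0361, within 0.0361 to 0.607) and the interaction (0.0219, within 0.0219 to 0.411). Under WM-8014 Meis3 rose over time (0.35 ± 0.060, adjusted p = 4.34e-05). Under WM-2474 it gave 0.11 ± 0.057 (adjusted p = 0.131), with 3 of 3 cultures higher and the groups apart. The Meis3 interaction was 0.24 ± 0.082 (adjusted p = 0.0659). Pbx2 gave changes of -0.05 ± 0.054 (adjusted p = 0.48) at 240 h and -0.03 ± 0.055 (adjusted p = 0.77) at 96 h, and 95% intervals of -0.16 to 0.06 and -0.14 to 0.09. Pbx3 gave 0.02 ± 0.067 (adjusted p = 0.83) and -0.02 ± 0.066 (adjusted p = 0.858), and fell over time (-0.23 ± 0.068, adjusted p = 0.0092 under WM-8014 and -0.27 ± 0.065, adjusted p = 0.00234 under WM-2474). Pbx3 lost its WM-8014 time call without WM-8014 240 h culture 6 (0.0752) and without culture 6 (0.0657) or 7 (0.115) throughout, within 0.00329 to 0.115 over 21 alternatives. Pbx3 lost its WM-2474 time call without culture 7 (0.0856) throughout and without WM-2474 96 h cultures 6 and 7 (0.17), within 0.00103 to 0.17 over 21 alternatives.

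Dlx, Msx and Alx genes are homeobox genes best known from facial and skull mesenchyme, with Msx2 a target of BMP signals. At 240 h 4 of the 5 tested, Dlx1, Dlx2, Msx2 and Alx1, were higher in WM-8014 cultures and Alx4 was lower. Over all genes 21.2% were higher and 21.4% lower. Of 12 tested Dlx, Alx, Pitx, Lhx, Msx and paired homeobox genes outside the list, 0 were higher and 2 lower at 240 h. None of the 5 members passed at 96 h. Dlx1 (chr2:71528113-71533981) and Dlx2 (chr2:71543408-71546754) lie 9426 bases apart. Dlx1 was low, at 2.52, 2.11 and 1.73 CPM in WM-8014 cultures, against 1.18, 0.80037 and 1.34 CPM in WM-2474 cultures at 240 h. Dlx2, whose upstream bases stand above, was at 11.8, 13.1 and 9.35 CPM in WM-8014 cultures, against 8.74, 8.14 and 7.97 CPM in WM-2474 cultures. In both genes the 240 h groups did not overlap, and the WM-8014 culture 7 value was the lowest of its group. Dlx1 rose by 0.92 ± 0.24 (adjusted p = 0.00378) and Dlx2 by 0.48 ± 0.13 (adjusted p = 0.00558) at 240 h, beside 0.07 ± 0.30 (adjusted p = 0.904) and 0.26 ± 0.13 (adjusted p = 0.173) at 96 h. Msx2 was at 11.6, 11.2 and 5.89 CPM in WM-8014 cultures, against 4.34, 6.18 and 4.16 CPM in WM-2474 cultures at 240 h. Cultures 5 and 6 of WM-8014 were high, whereas its culture 7 lay just under the highest WM-2474 culture, so that the groups overlapped. Msx2 rose by 0.95 ± 0.22 (adjusted p = 0.00431) at 240 h, beside -0.05 ± 0.26 (adjusted p = 0.919) at 96 h, and its interaction was 0.998 ± 0.35 (adjusted p = 0.0917). Msx2 passed that interaction test with DESeq2's Wald test (0.019), without WM-2474 240 h culture 6 (0.038), without WM-8014 240 h culture 7 (0.000343) and without culture 7 (0.0173) throughout, within 0.000343 to 0.452 over 21 alternatives. Under WM-8014 Dlx1 and Msx2 rose over time, by 1.12 ± 0.27 (adjusted p = 0.00136) and 1.08 ± 0.24 (adjusted p = 0.0025). Under WM-2474 their changes were 0.27 ± 0.27 (adjusted p = 0.461) and 0.08 ± 0.24 (adjusted p = 0.832). Dlx1 lost its 240 h call without culture 6 (0.099) throughout, within 0.0025 to 0.099 over 21 alternatives. Dlx2 lost its 240 h call without WM-8014 240 h culture 6 (0.0841) and without culture 6 (0.157, log2 change 0.31) throughout, within 0.000466 to 0.157 over 21 alternatives. Msx2 lost its 240 h call without culture 5 (0.105) throughout, within 6.62e-07 to 0.105 over 21 alternatives. Msx2 lost its WM-8014 time call without culture 5 (0.0541) throughout, within 2.23e-07 to 0.0541 over 21 alternatives.

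Alx1 was at 2.22, 2.11 and 2.42 CPM in WM-8014 cultures, against 1.5009, 1.07 and 1.49 CPM in WM-2474 cultures at 240 h. At 96 h it was at 4.48, 4.71 and 5.01 CPM in WM-8014 cultures, against 4.92, 5.86 and 6.29 CPM in WM-2474 cultures. WM-8014 cultures were thus the higher at 240 h and the lower, on average, at 96 h, and all 6 libraries at 96 h were above all 6 at 240 h. Alx1 rose by 0.74 ± 0.20 (adjusted p = 0.00463) at 240 h but gave -0.31 ± 0.14 (adjusted p = 0.124) at 96 h, and the interaction was 1.04 ± 0.24 (adjusted p = 0.00705). Over time Alx1 fell under both compounds, with a change of -1.08 ± 0.17 (adjusted p = 1.3e-05) under WM-8014 and -2.12 ± 0.16 (adjusted p = 1.41e-09) under WM-2474. Alx1 lost its 240 h call without culture 6 (0.0697) throughout, within 0.00406 to 0.0697 over 21 alternatives. Alx1 lost its interaction call without culture 6 (0.0965) or 7 (0.0843) throughout and without WM-2474 96 h cultures 6 and 7 (0.186), within 0.00468 to 0.186 over 21 alternatives. Alx4 was at 12.2, 17.2 and 14.8 CPM in WM-8014 cultures, against 17.3, 19.4 and 20.2 CPM in WM-2474 cultures at 240 h, with the groups apart by a narrow margin and WM-8014 culture 5 the lowest. It fell with a change of -0.32 ± 0.10 (adjusted p = 0.014) at 240 h and gave -0.07 ± 0.11 (adjusted p = 0.663) at 96 h. Under WM-2474 Alx4 rose over time (0.26 ± 0.099, adjusted p = 0.0476), with its groups overlapping. Alx4 lost its 240 h call without WM-2474 240 h culture 7 (0.0643), without WM-8014 240 h culture 5 (0.063) and without culture 7 (0.138) throughout, within 0.00162 to 0.138 over 21 alternatives. Alx4 lost its WM-2474 time call with DESeq2's Wald test (0.0995) and without WM-2474 96 h culture 5 (0.0927) or 7 (0.252). Other losses came without WM-2474 240 h culture 6 (0.125) or 7 (0.169) and without WM-8014 96 h culture 5 (0.0577). The call also ended without culture 6 (0.0557) or 7 (0.457, log2 change 0.15) throughout, within 0.017 to 0.457 over 21 alternatives. Without WM-2474 96 h cultures 6 and 7 it was lost as well, at a log2 change of 0.27. The summed level of 5 bone markers, 2 of them tested, was 205 to 359 CPM in WM-8014 cultures and 197 to 296 CPM in WM-2474 cultures at 240 h, and that of 5 cartilage markers 50.2 to 91.1 CPM and 54.6 to 94.6 CPM. WM-8014 culture 7 was the lowest of its group in both sums, as it was for Dlx1, Dlx2 and Msx2. Spp1 made up most of the bone sum, at 283 CPM in WM-8014 cultures and 231 CPM in WM-2474 cultures in the group means, and Col2a1 most of the cartilage sum, at 61.1 and 72.8 CPM, and neither was called. Sp7, a bone-forming cell factor, rose at 240 h (1.11, adjusted p = 0.00294), as did Comp, a cartilage matrix gene (1.77, adjusted p = 7.2e-06). Acan, another tested cartilage marker, pointed the other way but was not called (-1.91, adjusted p = 0.142). Its group means were 1.62 CPM in WM-8014 cultures and 4.38 CPM in WM-2474 cultures. The part of these markers in the changes was not tested.

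**Figure D3:**
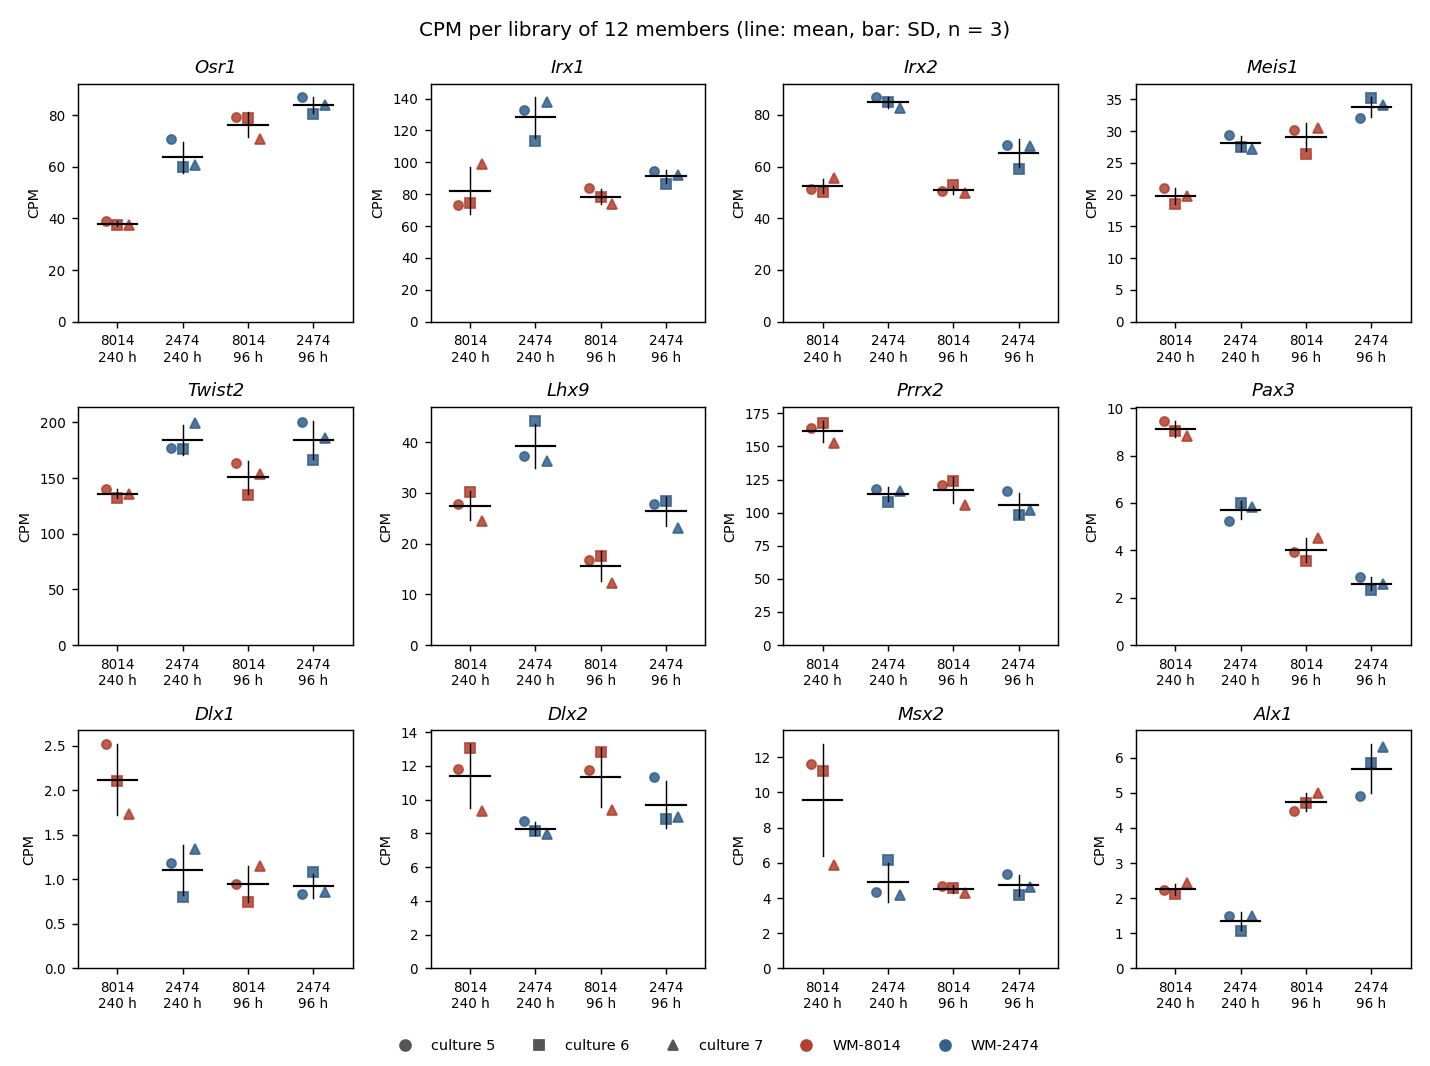
CPM in each library of 12 members: symbols are cultures 5, 6 and 7, red WM-8014 and blue WM-2474, with the group mean as a line and the SD as a bar (n = 3). Osr1, Irx1 and Irx2 of WM-8014 cultures lie below WM-2474 cultures at 240 h, Prrx2 and Pax3 lie above, and in Msx2 culture 7 of WM-8014 sits at 5.89 CPM, away from 11.6 and 11.2 CPM.

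Emx2, Lhx9, Shox2 and Pitx1 are homeobox factors of the urogenital ridge and limb: Emx2 and Lhx9 act in the early gonad, Shox2 in the proximal limb, and Pitx1 sets hindlimb identity. Emx2 and Lhx9 were lower in WM-8014 cultures at both times. Lhx9 was at 27.8, 30.2 and 24.5 CPM in WM-8014 cultures, against 37.3, 44.3 and 36.4 CPM in WM-2474 cultures at 240 h, and at 16.8, 17.6 and 12.2 CPM in WM-8014 cultures, against 27.8, 28.4 and 23.1 CPM in WM-2474 cultures at 96 h. The groups did not overlap at either time, and culture 7 was the lowest in each of the 4 groups. Lhx9 fell with a change of -0.51 ± 0.13 (adjusted p = 0.00768) at 240 h and -0.73 ± 0.15 (adjusted p = 0.00564) at 96 h, the interaction being 0.22 ± 0.20 (adjusted p = 0.579). Emx2 was at 22.9 ± 0.96 CPM in WM-8014 cultures and 28.9 ± 2.0 CPM in WM-2474 cultures at 240 h (SD, n = 3 each; -0.34 ± 0.070, adjusted p = 0.000425) and at 22.2 ± 1.2 CPM in WM-8014 cultures and 27.2 ± 2.3 CPM in WM-2474 cultures at 96 h (-0.28 ± 0.073, adjusted p = 0.00873). Lhx9 rose over time under both compounds (0.83 ± 0.15, adjusted p = 0.000747 under WM-8014 and 0.62 ± 0.13, adjusted p = 0.00278 under WM-2474), so that its WM-8014 cultures at 240 h were near its WM-2474 cultures at 96 h. Lhx9 lost its 240 h call without culture 5 (0.0791) throughout, within 2.18e-07 to 0.0791 over 21 alternatives. Lhx9 lost its 96 h call without culture 5 (0.104) throughout, within 6.09e-08 to 0.104 over 21 alternatives. Emx2 lost its 96 h call without WM-8014 96 h culture 5 (0.0512) and without culture 5 (0.123) throughout, within 0.00263 to 0.123 over 21 alternatives. The 96 h log2 change of Emx2 was -0.43 without WM-2474 96 h cultures 6 and 7 (adjusted p = 0.0222). Lhx9 lost its WM-2474 time call without WM-2474 96 h cultures 6 and 7 (0.104), within 3.2e-08 to 0.104 over 21 alternatives. Shox2 was at 34.7 ± 3.1 CPM in WM-8014 cultures and 29.7 ± 4.9 CPM in WM-2474 cultures at 240 h (0.21 ± 0.15, adjusted p = 0.292) and gave -0.07 ± 0.16 (adjusted p = 0.819) at 96 h. Shox2 passed at 240 h without culture 5 (0.0337) throughout, within 0.00454 to 0.623 over 21 alternatives. Under WM-8014 Shox2 rose over time (0.56 ± 0.16, adjusted p = 0.0149). Under WM-2474 its time change was 0.28 ± 0.15 (adjusted p = 0.177), with 3 of 3 cultures higher. That change passed with culture as a block (0.00399), within 0.00399 to 0.882 over 21 alternatives. The Shox2 interaction was 0.27 ± 0.22 (adjusted p = 0.525) and passed with the block (0.0191). Shox2 lost its WM-8014 time call without WM-8014 96 h culture 6 (0.0553) or 7 (0.054) and without culture 6 (0.158) throughout, within 9.39e-08 to 0.158 over 21 alternatives. The Rsrc1 gene overlaps Shox2, and it rose between compounds (0.30, adjusted p = 0.000707, at 96 h and 0.25, adjusted p = 0.000872, at 240 h). Rsrc1 lost its 96 h call without WM-2474 96 h cultures 6 and 7 (0.0973), within 0.00013 to 0.0973 over 21 alternatives.

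Pitx1 (chr13:55825044-55836190) differed more between cultures than between compounds. It was at 4.44, 3.87 and 1.21 CPM in WM-8014 cultures, against 7.3972, 6.76 and 0.594 CPM in WM-2474 cultures at 240 h. At 96 h it was at 7.20, 9.62 and 2.91 CPM in WM-8014 cultures, against 12.1, 12.2 and 2.75 CPM in WM-2474 cultures. Culture 7 was the lowest in each of the 4 groups. With all cultures the compound change was -0.65 ± 0.98 (adjusted p = 0.632) at 240 h and -0.19 ± 0.86 (adjusted p = 0.908) at 96 h. Without culture 7, Pitx1 was lower at 240 h (-0.80, adjusted p = 0.00139) and at 96 h (-0.53, adjusted p = 0.0305), within 0.00139 to 0.873 and 0.0305 to 0.989 over 21 alternatives. In both remaining cultures it was lower in WM-8014 at both times, whereas in culture 7 it was higher in WM-8014 at both times. With culture as a block, which keeps culture 7, the compound change was called at neither time. Without culture 7 Pitx1 was also lower at 240 h than at 96 h under WM-8014 (-1.05, adjusted p = 0.000112) and under WM-2474 (-0.78, adjusted p = 0.000838), beside -1.07 ± 0.98 (adjusted p = 0.404) and -0.61 ± 0.86 (adjusted p = 0.626) with all cultures. The block called these falls over time, with -1.10 (adjusted p = 0.00226) under WM-8014 and -0.90 (adjusted p = 0.00352) under WM-2474. A test of the culture number, added after the Pitx1 values had been seen, found 4 of 41 members different between cultures over all 12 libraries (edgeR, adjusted p under 0.05), or 9.76% beside 1.49% of all genes. It gives 1 p per gene for any difference among the 3 cultures and none for a pair of them. That p was 0.000183 after adjustment for Pitx1, whose fitted level was 4.34-fold lower in culture 7 than in culture 5. For Shox2 it was 0.00153, with log2 differences from culture 5 of -0.25 in culture 6 and -0.38 in culture 7. For Zic1 it was 0.00479, with 0.00 in culture 6 and 0.31 in culture 7, and for Lhx9 0.0046, with 0.13 in culture 6 and -0.20 in culture 7. The test over the 6 libraries at 96 h called 5 members, the same 4 with Twist2, beside 2.45% of all genes. Over the 6 libraries at 240 h it called Pitx1 alone (adjusted p = 0.0105), beside 0.212% of all genes. What the cultures differ in besides their number is not given in the labels.

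**Figure D4:**
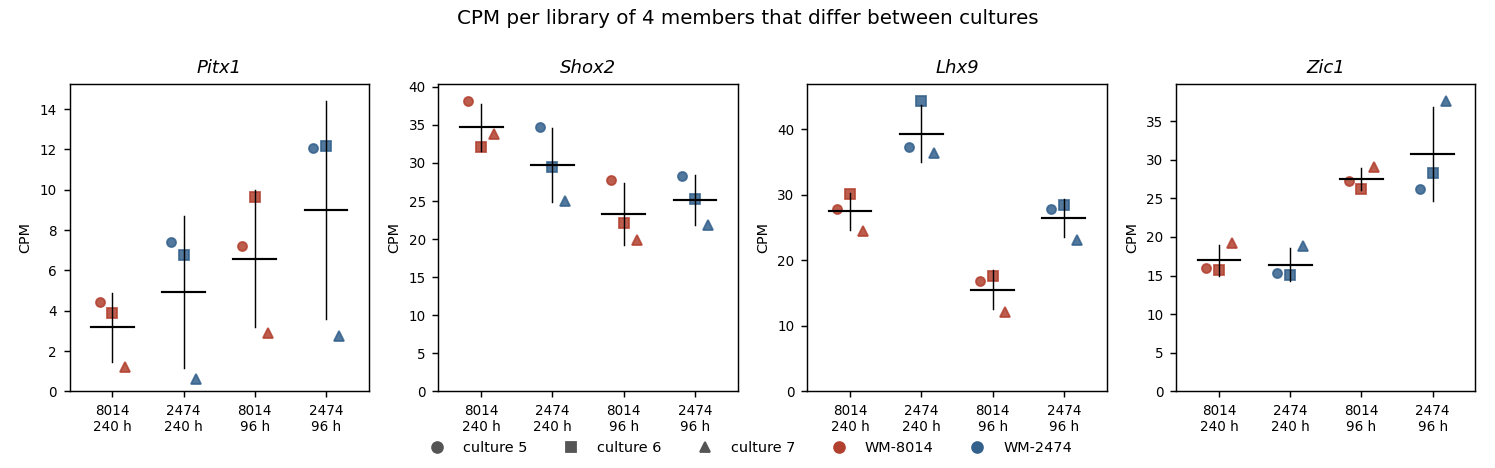
CPM in each library of the 4 members called between cultures over 12 libraries, by group: symbols are cultures 5, 6 and 7, the line is the mean and the bar the SD (n = 3). Pitx1 of culture 7 lies between 0.594 and 2.91 CPM, below cultures 5 and 6 in all 4 groups.

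The sine oculis homeodomain proteins Six2, Six4 and Six5 act with Eya proteins, which are cofactors and phosphatases without DNA binding of their own. Of the 7 tested, Eya2 alone passed between compounds, at 96 h. Eya2 was near the detection limit, with 12, 19 and 12 reads in WM-8014 cultures against 11, 33 and 99 reads in WM-2474 cultures at 96 h. That is 0.815, 1.30 and 0.812 CPM in WM-8014 cultures, against 1.02, 2.39 and 2.03 CPM in WM-2474 cultures. WM-8014 culture 6 lay above WM-2474 culture 5, so the groups overlapped. Eya2 fell with a change of -0.97 ± 0.29 (adjusted p = 0.0201) at 96 h and gave -0.74 ± 0.46 (adjusted p = 0.207) at 240 h. Eya2 lost its 96 h call with DESeq2's Wald test (0.107), without WM-2474 96 h culture 6 (0.0707) or 7 (0.131), without WM-8014 96 h culture 5 (0.0933) or 7 (0.0862), without culture 6 (0.0565) or 7 (0.279) throughout and without WM-2474 96 h cultures 6 and 7 (0.964, log2 change -0.07), within 0.00649 to 0.964 over 21 alternatives. Over time most of the family fell under both compounds. Eya2 fell with a change of -1.67 ± 0.43 (adjusted p = 0.00249) under WM-8014 and -1.90 ± 0.31 (adjusted p = 3.85e-05) under WM-2474. Eya4 fell with a change of -0.77 ± 0.13 (adjusted p = 6.88e-05) and -0.70 ± 0.12 (adjusted p = 0.000122), and Eya1 with a change of -0.33 ± 0.10 (adjusted p = 0.0101) and -0.38 ± 0.095 (adjusted p = 0.00316). Six4 fell with a change of -0.63 ± 0.15 (adjusted p = 0.00161) and -0.61 ± 0.13 (adjusted p = 0.000886), and Six2, a factor of kidney progenitors, with a change of -0.65 ± 0.23 (adjusted p = 0.0211) and -0.82 ± 0.21 (adjusted p = 0.00338). Eya2 lost its WM-2474 time call without WM-2474 96 h cultures 6 and 7 (0.228, log2 change -1.005), within 6.63e-07 to 0.228 over 21 alternatives. Eya1 lost its WM-8014 time call without WM-8014 96 h culture 7 (0.0785), without WM-8014 240 h culture 7 (0.0543) and without culture 7 (0.26, log2 change -0.18) throughout, within 0.000556 to 0.26 over 21 alternatives. The WM-8014 time log2 change of Eya1 was -0.50 without WM-8014 240 h culture 6 (adjusted p = 0.000556) and -0.54 without culture 6 throughout (adjusted p = 0.00173). Eya1 lost its WM-2474 time call without culture 7 (0.067) throughout and without WM-2474 96 h cultures 6 and 7 (0.348, log2 change -0.24), within 0.000662 to 0.348 over 21 alternatives. Six4 lost its WM-2474 time call without culture 7 (0.0805) throughout and without WM-2474 96 h cultures 6 and 7 (0.317, log2 change -0.36), within 6.04e-05 to 0.317 over 21 alternatives. Six2 lost its WM-8014 time call with DESeq2's Wald test (0.105), with no filter on low counts (0.0581), without WM-8014 96 h culture 6 (0.0543), without WM-8014 240 h culture 6 (0.0937) and without culture 5 (0.0629), 6 (0.174) or 7 (0.0855) throughout, within 0.019 to 0.174 over 21 alternatives. Six2 lost its WM-2474 time call without culture 7 (0.0835) throughout and without WM-2474 96 h cultures 6 and 7 (0.0717), within 0.00292 to 0.0835 over 21 alternatives. Between compounds Six4 was at 4.45 ± 1.1 CPM in WM-8014 cultures and 5.88 ± 0.70 CPM in WM-2474 cultures at 240 h (-0.33 ± 0.15, adjusted p = 0.0775) and gave -0.31 ± 0.14 (adjusted p = 0.103) at 96 h. Six4 passed at 240 h without WM-2474 240 h culture 7 (0.0475), within 0.044 to 0.424 over 21 alternatives. Mnat1, which overlaps Six4, went the other way at 240 h (0.16, adjusted p = 0.0408). Mnat1 lost its 240 h call with DESeq2's Wald test (0.107), with no filter on low counts (0.0701), without WM-2474 240 h culture 5 (0.061) or 6 (0.186), without WM-2474 96 h culture 6 (0.0515), without WM-8014 240 h culture 5 (0.134) or 6 (0.0834), without culture 5 (0.17) or 6 (0.292) throughout and without WM-2474 96 h cultures 6 and 7 (0.0502), within 0.0348 to 0.292 over 21 alternatives. For Six2, Six5, Eya1, Eya3 and Eya4 the compound changes at 240 h were 0.11, -0.00, -0.03, -0.03 and -0.20, and at 96 h -0.06, -0.05, -0.07, -0.01 and -0.13. None of these passed. Eya3 and Six5 passed in none of the 5 tests, as did Pbx2 and Pitx1. Eya3 stayed between 53.7 and 59.4 CPM over all 12 libraries, and its 95% interval at 240 h was -0.13 to 0.07.

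Sox4 and Sox11 are close relatives of the SoxC group, and Sox9 is the factor that starts cartilage. Sox4 was at 148, 155 and 162 CPM in WM-8014 cultures, against 188, 176 and 182 CPM in WM-2474 cultures at 240 h, with all WM-8014 cultures below all WM-2474 cultures, and fell (log2 fold change -0.23 ± 0.042 (SE), adjusted p = 0.000142). At 96 h it was at 170.5 ± 7.0 CPM in WM-8014 cultures and 185 ± 5.9 CPM in WM-2474 cultures and just missed the threshold (-0.12 ± 0.042, adjusted p = 0.0522). With culture as a block it passed there (0.0456), and it also passed with DESeq2 size factors (0.0421), with no filter on low counts (0.0309), without WM-2474 240 h culture 5 (0.0458), without WM-8014 96 h culture 6 (0.0424) and without WM-8014 240 h culture 7 (0.0389), within 0.0309 to 0.335 over 21 alternatives. Sox11 was at 16.4, 17.9 and 13.5 CPM in WM-8014 cultures, against 20.7, 21.0 and 19.954 CPM in WM-2474 cultures at 240 h and at 18.8, 18.8 and 18.3 CPM in WM-8014 cultures, against 20.3, 23.4 and 21.9 CPM in WM-2474 cultures at 96 h, the groups being apart at both times. It fell with a change of -0.35 ± 0.085 (adjusted p = 0.00192) at 240 h and with a change of -0.24 ± 0.085 (adjusted p = 0.04997), just under the threshold, at 96 h. Sox11 lost its 96 h call with DESeq2's Wald test (0.093), without WM-2474 240 h culture 5 (0.0531), 6 (0.0584) or 7 (0.0575), without WM-2474 96 h culture 6 (0.152) or 7 (0.139), without WM-8014 96 h culture 5 (0.102), 6 (0.0943) or 7 (0.121), without WM-8014 240 h culture 5 (0.0614), without culture 5 (0.114), 6 (0.184) or 7 (0.135) throughout and without WM-2474 96 h cultures 6 and 7 (0.662, log2 change -0.13), within 0.018 to 0.662 over 21 alternatives. Sox9 was at 51.9, 43.4 and 41.5 CPM in WM-8014 cultures, against 37.3, 38.5 and 38.4 CPM in WM-2474 cultures at 96 h. All WM-8014 cultures were above all WM-2474 cultures, with culture 5 the highest. Sox9 rose at 96 h (0.26 ± 0.064, adjusted p = 0.00595) and gave 0.06 ± 0.064 (adjusted p = 0.473) at 240 h. The summed level of 5 cartilage markers, 3 of them tested, was 65.8 to 148 CPM in WM-8014 cultures and 86.0 to 164 CPM in WM-2474 cultures at 96 h, most of it Col2a1, which was not called (-0.36, adjusted p = 0.586). Comp, another of them, rose at 96 h (0.89, adjusted p = 0.00798), at 3.04 CPM in WM-8014 cultures and 1.67 CPM in WM-2474 cultures in the group means. Acan, also tested, was at 0.385 CPM in WM-8014 cultures and 0.838 CPM in WM-2474 cultures and was not called (-0.95, adjusted p = 0.732). Comp lost its 96 h call without WM-2474 96 h culture 7 (0.087), without WM-8014 96 h culture 6 (0.0701), without culture 6 (0.0547) or 7 (0.101) throughout and without WM-2474 96 h cultures 6 and 7 (0.121), within 0.00275 to 0.121 over 21 alternatives. The part of these markers in the Sox9 result was not tested. Under WM-8014 Sox4 and Sox9 fell over time with a change of -0.13 ± 0.042 (adjusted p = 0.0122) and -0.30 ± 0.065 (adjusted p = 0.000618). Under WM-2474 they gave -0.02 ± 0.041 (adjusted p = 0.72) and -0.10 ± 0.063 (adjusted p = 0.224). Sox11 gave -0.21 ± 0.089 (adjusted p = 0.056) under WM-8014 and passed without WM-8014 240 h culture 6 (0.00624) and without culture 6 (0.0222) throughout, within 0.00624 to 0.383 over 21 alternatives. Sox9 lost its 96 h call without WM-8014 96 h culture 5 (0.0644, log2 change 0.16), without culture 5 (0.135, log2 change 0.14) throughout and without WM-2474 96 h cultures 6 and 7 (0.118), within 0.0014 to 0.135 over 21 alternatives. Sox4 lost its WM-8014 time call without WM-8014 240 h culture 5 (0.0756), without WM-8014 96 h culture 6 (0.0649) and without culture 5 (0.171) or 6 (0.126) throughout, within 0.00282 to 0.171 over 21 alternatives. The WM-8014 time log2 change of Sox9 was -0.20 without WM-8014 96 h culture 5 (adjusted p = 0.00755).

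Pax3, a paired box factor of muscle precursors and neural crest, was the only member higher at both times. It was at 9.48, 9.06 and 8.83 CPM in WM-8014 cultures, against 5.25, 6.00 and 5.84 CPM in WM-2474 cultures at 240 h. At 96 h it was at 3.94, 3.55 and 4.53 CPM in WM-8014 cultures, against 2.88, 2.32 and 2.58 CPM in WM-2474 cultures. The groups did not overlap at either time, and the 240 h libraries lay above the 96 h libraries of both compounds. Pax3 rose by 0.67 ± 0.11 (adjusted p = 5.31e-05) at 240 h and 0.64 ± 0.15 (adjusted p = 0.00385) at 96 h, the interaction being 0.03 ± 0.19 (adjusted p = 0.959). Over time it rose by 1.18 ± 0.13 (adjusted p = 7.84e-08) under WM-8014 and 1.15 ± 0.13 (adjusted p = 5.44e-07) under WM-2474. Pax3 lost its 96 h call without culture 7 (0.112) throughout and without WM-2474 96 h cultures 6 and 7 (0.307), within 0.00351 to 0.307 over 21 alternatives. At 240 h the summed level of 6 skeletal muscle markers was 498 to 718 CPM in WM-8014 cultures and 260 to 345 CPM in WM-2474 cultures. Of these, 2 were tested, and Des, a muscle filament gene also made by smooth muscle, was at 92.6 and 30.2 CPM in the group means and Acta1 at 524 and 267 CPM. Both were called at 240 h (1.61, adjusted p = 1.01e-07 for Des and 0.97, adjusted p = 0.00199 for Acta1). Acta1 lost its 240 h call without culture 5 (0.0687) throughout, within 2.63e-07 to 0.0687 over 21 alternatives. At 96 h the sum was 153 to 182 CPM in WM-8014 cultures and 135 to 149 CPM in WM-2474 cultures, and Des was higher in WM-8014 cultures (0.54, adjusted p = 0.00647). Des lost its 96 h call without culture 6 (0.0632) throughout and without WM-2474 96 h cultures 6 and 7 (0.161), within 5.49e-06 to 0.161 over 21 alternatives. Myod1 and Myf5, which define the lineage, had 0 reads in the WM-8014 group at 240 h and averaged 0.0179 and 0.0148 CPM in the WM-2474 group, and Ckm had 0 reads in both. The sum of 5 neural crest and Schwann markers, 4 of them tested, was 3.53 to 8.66 CPM in WM-8014 cultures and 7.61 to 12.5 CPM in WM-2474 cultures, and Sox10, which defines them, was lower in WM-8014 cultures (-1.31, adjusted p = 0.000228). The part of these markers in the Pax3 result was not tested.

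Nr2f1 and Nr2f2 encode the COUP-TF orphan nuclear receptors. Nr2f1 was at 8.27, 8.99 and 9.98 CPM in WM-8014 cultures, against 11.1, 10.8 and 11.9 CPM in WM-2474 cultures at 240 h, where the groups did not overlap. It fell with a change of -0.30 ± 0.091 (adjusted p = 0.0122) at 240 h and gave -0.11 ± 0.086 (adjusted p = 0.377) at 96 h. It also fell over time with a change of -0.60 ± 0.093 (adjusted p = 1.37e-05) under WM-8014 and -0.42 ± 0.084 (adjusted p = 0.000432) under WM-2474. The overlapping gene A830082K12Rik went the other way between compounds at 240 h (0.68, adjusted p = 0.0186). A830082K12Rik lost its 240 h call with DESeq2's Wald test (0.073), without WM-2474 240 h culture 7 (0.0589), without WM-8014 240 h culture 7 (0.0752) and without culture 5 (0.0572), 6 (0.063) or 7 (0.162) throughout, within 0.0182 to 0.162 over 21 alternatives. Nr2f2 gave -0.08 ± 0.051 (adjusted p = 0.205) at 240 h and -0.01 ± 0.052 (adjusted p = 0.922) at 96 h, with 95% intervals of -0.19 to 0.02 and -0.12 to 0.10. Under WM-8014 Nr2f2 fell over time (-0.15 ± 0.053, adjusted p = 0.0189). Under WM-2474 its time change was not called. Over 21 alternatives that log2 change was -0.19 to -0.04, with an adjusted p of 0.0719 to 0.636. Nr2f1 lost its 240 h call without WM-2474 240 h culture 7 (0.0561), without WM-8014 240 h culture 6 (0.0598) and without culture 5 (0.0672) or 6 (0.0775) throughout, within 0.00734 to 0.0775 over 21 alternatives. Nr2f2 lost its WM-8014 time call without WM-8014 240 h culture 6 (0.0568), without WM-8014 96 h culture 7 (0.0866) and without culture 6 (0.0933) or 7 (0.172) throughout, within 0.00872 to 0.172 over 21 alternatives.

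Gata2 and Gata6 are zinc finger factors of blood and mesoderm, Zic1 is a zinc finger factor of dorsal mesoderm and neural tissue, and Wt1 marks kidney and mesothelium. None of the 4 passed between compounds, and all 4 were lower at 240 h than at 96 h under at least 1 compound. Zic1 was at 17.0 ± 2.0 CPM in WM-8014 cultures and 16.4 ± 2.1 CPM in WM-2474 cultures at 240 h (SD, n = 3 each; 0.05 ± 0.15, adjusted p = 0.822) and gave -0.21 ± 0.14 (adjusted p = 0.311) at 96 h. Over time Zic1 fell with a change of -0.70 ± 0.15 (adjusted p = 0.00242) under WM-8014 and -0.96 ± 0.14 (adjusted p = 0.000227) under WM-2474. Gata6 was at 5.17 ± 0.41 CPM in WM-8014 cultures and 6.25 ± 0.83 CPM in WM-2474 cultures at 240 h (-0.30 ± 0.15, adjusted p = 0.123), gave -0.24 ± 0.14 (adjusted p = 0.217) at 96 h, and fell over time with a change of -0.65 ± 0.15 (adjusted p = 0.00137) and -0.60 ± 0.13 (adjusted p = 0.00128). Gata2 gave 0.21 ± 0.14 (adjusted p = 0.245) at 240 h and -0.04 ± 0.14 (adjusted p = 0.862) at 96 h, and fell over time under WM-2474 (-0.56 ± 0.14, adjusted p = 0.00286). Under WM-8014 its time change was -0.31 ± 0.14 (adjusted p = 0.0822), and it passed without WM-2474 240 h culture 5 (0.04997) and without WM-8014 96 h culture 7 (0.0242), within 0.0242 to 0.391 over 21 alternatives. Gata6 lost its WM-2474 time call without WM-2474 96 h cultures 6 and 7 (0.0541), within 9.98e-05 to 0.0541 over 21 alternatives. Gata2 lost its WM-2474 time call without WM-2474 96 h cultures 6 and 7 (0.132), within 9.02e-05 to 0.132 over 21 alternatives. Wt1 was at 1.02, 0.546 and 0.338 CPM in WM-8014 cultures, against 1.86, 0.362 and 1.4959 CPM in WM-2474 cultures at 96 h, with the groups overlapping. It gave -1.02 ± 0.48 (adjusted p = 0.142) at 96 h and -0.89 ± 0.69 (adjusted p = 0.32) at 240 h. With culture as a block Wt1 passed at 96 h (0.03), as it did without WM-2474 96 h culture 6 (0.021), within 0.021 to 0.788 over 20 alternatives. Over time Wt1 fell under WM-2474 (-1.44 ± 0.47, adjusted p = 0.0227). Under WM-8014 its fall was not called. Over 21 alternatives that log2 change was -1.83 to -0.76, with an adjusted p of 0.0501 to 0.449. The summed level of 5 mesothelial markers, all tested, was 18.1 to 22.7 CPM at 240 h and 40.2 to 66.0 CPM at 96 h under WM-2474. Under WM-8014 it was 24.0 to 33.7 CPM at 240 h and 41.1 to 79.2 CPM at 96 h. The times did not overlap under either compound, and the part of these markers in the Wt1 result was not tested. Wt1 lost its WM-2474 time call with DESeq2's Wald test (0.0537), without WM-2474 96 h culture 5 (0.0565) or 7 (0.203), without WM-2474 240 h culture 6 (0.0974) or 7 (0.0534) and without culture 7 (0.293) throughout, within 0.00119 to 0.293 over 21 alternatives.

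Over time, 28 of 41 members differed between 240 h and 96 h under WM-8014, 11 higher and 17 lower, or 68.3% beside 49.7% of all genes (24.8% higher and 25.0% lower). Under WM-2474 23 changed, 8 higher and 15 lower, or 56.1% beside 38.9% of all genes (19.8% higher and 19.1% lower), and with 1 library left in its 96 h group, without cultures 6 and 7, 3 were called higher and 7 lower. The median log2 change over time was -0.15 over the members under WM-8014 and -0.08 under WM-2474, beside -0.02 and -0.01 over all genes. Members higher at 240 h under both compounds numbered 5, Irx3, Irx5, Lhx9, Pax3 and Twist1, and those lower numbered 13, Alx1, Eya1, Eya2, Eya4, Gata6, Meis1, Meis2, Nr2f1, Osr1, Pbx3, Six2, Six4 and Zic1. Shared members were 45.5% of those higher under WM-8014 and 62.5% of those higher under WM-2474, and 76.5% and 86.7% of those lower. Here too the shared part of all called genes was not computed. Time and compound comparisons share libraries, and a longer treatment cannot be told apart from a longer time in culture.

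**Figure D5:**
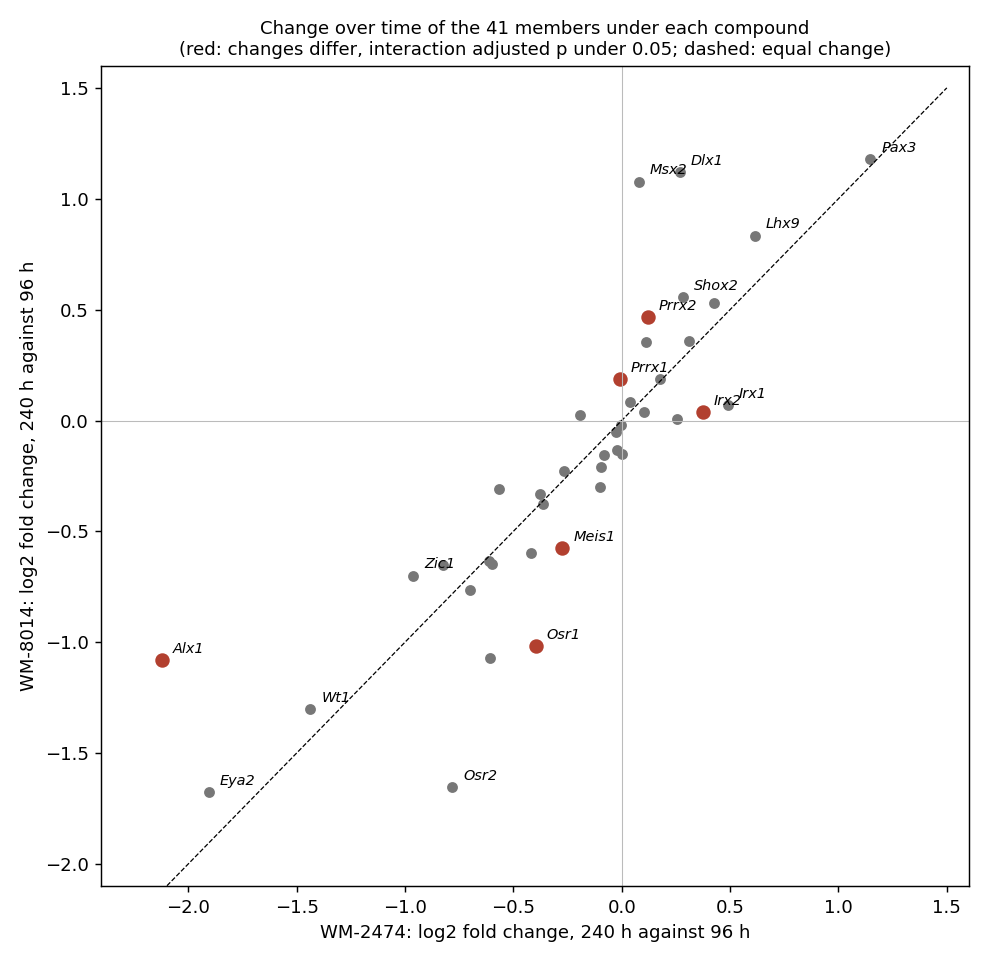
Log2 fold change of 240 h over 96 h of the 41 members under WM-8014 (vertical axis) against WM-2474 (horizontal axis), with the line of equal change dashed. The 6 members in red had an interaction at an adjusted p under 0.05; Osr1 and Meis1 lie below the line on the falling side, Irx2 below it on the rising side, and Alx1, Prrx1 and Prrx2 above it.

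Relatives and partners of the members formed a second list of 62 genes, 43 of which were tested. At 240 h 6 were higher and 12 lower in WM-8014 cultures, or 41.9% beside 42.6% of all genes. At 96 h 1 was higher and 6 lower, or 16.3% beside 22.8%. The median log2 fold change of the list was -0.15 at 240 h and -0.10 at 96 h. The genes named here are among those with the smallest p in each direction. Tcf3, which encodes the E protein that pairs with Twist factors, was lower at 240 h, at 136 ± 9.5 CPM in WM-8014 cultures and 198 ± 2.8 CPM in WM-2474 cultures (-0.54 ± 0.042, adjusted p = 1.33e-09), and at 96 h (-0.24 ± 0.042, adjusted p = 0.00025). Sox12, the third SoxC gene beside Sox4 and Sox11, was lower at 240 h, at 24.1 ± 2.5 CPM in WM-8014 cultures and 36.8 ± 1.0 CPM in WM-2474 cultures (-0.60 ± 0.061, adjusted p = 6.8e-08). Zfpm2, a cofactor of Gata proteins, was lower at 240 h, at 24.1 ± 0.20 CPM in WM-8014 cultures and 33.7 ± 1.3 CPM in WM-2474 cultures (-0.48 ± 0.057, adjusted p = 5.79e-07), and at 96 h (-0.34 ± 0.057, adjusted p = 0.00022). Among those higher at 240 h were Zeb1, a zinc finger repressor of epithelial genes, with 0.33 ± 0.047 (adjusted p = 9.22e-06), and Nr2f6, another COUP-TF gene, with 0.17 ± 0.044 (adjusted p = 0.00284). Zeb2 was the one gene higher at 96 h (0.15 ± 0.039, adjusted p = 0.00651). By family at 240 h, 5 of 6 tested Sox and COUP-TF relatives passed, 2 higher and 3 lower, and 2 of 12 Dlx, Alx, Pitx, Lhx, Msx and paired relatives passed, both lower. Zeb2 lost its 96 h call without culture 5 (0.0906) throughout, within 0.00349 to 0.0906 over 21 alternatives.

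Promoter windows of 300 bases, 250 before and 50 after a start, were listed by RefSeq for 29 of the 44 members, in 33 windows. The GC box GGGCGG stood in 69.7% of them, beside 35.7% of all 32851 windows, and CCAAT in 51.5% beside 37.4%. The homeodomain letters TAATTA stood in 9.09% beside 5.29% (Emx2, Msx2 and Prrx1), the Meis letters TGACAG in 12.1% beside 19.2%, CATATG in 3.03% beside 3.92% (Sox11), and TATAAA in 9.09% beside 13.6%. Each motif was searched on both strands. The members' windows held a median of 23 CG dinucleotides, beside 7 over all windows. In the 250 printed bases there were 19 CG dinucleotides for Irx2, 18 for Twist1, 17 for Sox11 and 24 for Dlx2. A match describes letters in a window and no binding was measured.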

How the data were processed

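The deposited file is a table of counts of reads per gene in 12 libraries with gene lengths, made by the authors with featureCounts on mm10, per the submitters' processing notes. Libraries were made with a stranded poly(A) kit, per the labels' protocols, with the aligner, versions and strand setting not given in the sources used here. Depth was 10147466 to 45903190 reads per library.

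Of 27179 Entrez identifiers, 25275 matched a symbol in the RefSeq table for GRCm38.p6, the assembly behind mm10. Counts were fitted in edgeR 4.0.16 (R 4.3.3) with 4 group means over all 12 libraries, TMM scaling, filterByExpr, which kept 14136 genes, and robust quasi-likelihood F tests, two-sided. P-values were adjusted by Benjamini-Hochberg over all genes tested and called under 0.05. CPM use TMM-scaled library sizes, and RPKM also the deposited lengths. The steps were tested on simulated counts. Alternatives were DESeq2 1.42.0 (Wald test, or its size factors in edgeR), no filter, a filter of CPM of at least 1 in 3 libraries, the culture number as a block, and left-out libraries.

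Culture numbers are shared between groups. Deviations from the group means of same-numbered cultures correlated at 0.14, 0.15 and 0.16 at 96 h, above 0.1 in each pair, so that the block is printed beside 96 h results whose call it changes. At 240 h not every pair exceeded 0.1.

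All 44 members are named. Of the relatives, up to 3 per direction with the smallest p were taken at each time, and some of them are not reported here. The members, the relatives and the marker lists were chosen with earlier results of these data known. The test of the culture number was added after seeing the data.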

Additional observations from a re-analysis of the deposited data

Results flagged for a closer look

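The difference between the effects of WM-8014 at 240 h and at 96 h was itself past the threshold for 6 members (edgeR interaction, adjusted p under 0.05), which is what marked them here. The log2 interaction, the 240 h effect minus the 96 h effect, was -0.62 for Osr1 (adjusted p = 5.29e-05), where both effects were below 0 and all 3 cultures were lower in WM-8014 at each time. Irx2 gave -0.34 (adjusted p = 0.00602), and Meis1 -0.30 (adjusted p = 0.0467), also with both effects below 0 in 3 of 3 cultures. Alx1 gave 1.04 (adjusted p = 0.00705), with an effect of 0.74 at 240 h and -0.31 at 96 h, of which the first alone passed. Prrx1 gave 0.20 (adjusted p = 0.0298), with 0.05 at 240 h and -0.15 at 96 h. Prrx2 gave 0.35 (adjusted p = 0.0368), with 0.50 at 240 h and 0.16 at 96 h. Over 21 alternatives the Osr1 call held in each. The others were lost in 16 for Meis1 (adjusted p 0.0182 to 0.223), 10 for Prrx1 (0.00461 to 0.257), 10 for Prrx2 (0.0051 to 0.13), 3 for Alx1 (0.00468 to 0.186) and 2 for Irx2 (0.000714 to 0.175). Among these losses were those without cultures 6 and 7 of the WM-2474 96 h group, which leaves 1 library there, for Irx2 (0.0924), Meis1 (0.11), Prrx1 (0.157) and Alx1 (0.186).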

How the results depend on the processing

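With 3 cultures per group, low members such as Eya2, Wt1, Osr2 and Dlx1 rest on few reads, and their intervals cover counting error and culture spread together. Scaling by DESeq2 size factors moved the median of all genes by less than 0.01 on the log2 scale. No call reversed.

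With cultures 6 and 7 left out of the WM-2474 96 h group, 1 library remained in it, assumed to vary like the other groups, and 0 members were higher and 4 lower at 96 h, with 432 and 437 of all genes. The interaction then called 1 member higher and 1 lower, with 240 and 346 of all genes, and WM-2474 over time 3 higher and 7 lower, with 1454 and 1256 of all genes. Leaving out one library, or one culture number throughout, gave these ranges of calls. At 96 h members higher were 1 to 3 and lower 5 to 11, and all genes 847 to 1616 and 903 to 1776. At 240 h members higher were 3 to 7 and lower 9 to 14, and all genes 2161 to 3013 and 2193 to 3076. Interactions of members were 1 to 4 higher and 1 to 3 lower, and of all genes 315 to 802 and 409 to 801. Over time members were 6 to 8 higher and 11 to 16 lower under WM-2474, and 9 to 11 and 14 to 18 under WM-8014. All genes were 1995 to 2846 higher and 1821 to 2742 lower under WM-2474, and 2798 to 3561 and 2672 to 3558 under WM-8014. The culture test called 4 members over 12 libraries and 1 at 240 h, and 211 genes over 12 libraries, 346 at 96 h and 30 at 240 h. The cause of these changes was not tested, and fewer libraries leave fewer degrees of freedom.

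With the replicate block, members at 240 h were 8 higher and 15 lower, adding Shox2 (0.00454), Irx3 (0.0373), Osr2 (0.0358) and Six4 (0.044). At 96 h they were 2 and 13. Interactions were 5 higher and 3 lower, adding Msx2 (0.00955) and Shox2 (0.0191). Over time members were 11 higher and 21 lower under WM-8014, and 9 and 17 under WM-2474. Counts over all genes with the block are not reported here. The most calls over all genes under any of the 21 alternatives were 3154 higher and 3176 lower at 240 h. They were 1737 and 1853 at 96 h, and 917 and 923 for the interaction. Over time they were 3610 and 3626 under WM-8014, and 2954 and 2857 under WM-2474. At 240 h same-numbered cultures correlated at 0.064, 0.24 and 0.048 in their deviations, all positive but not all above 0.1. The culture test called 30 genes there, Pitx1 among them, so that some genes differed by culture number at 240 h as well.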
